A study of Mus musculus with 29 samples.

Results

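Gli1-lineage cells of the mouse common bile duct were compared at day 4 of bile duct ligation with the same lineage from uninjured mice. The comparison took 6 of the 29 libraries of the series, 3 for each group, and 17150 of the 55401 genes in the deposited count table had enough counts to be tested. All 6 animals carried Gli1:CreERT2, which makes a tamoxifen-dependent Cre recombinase where the hedgehog target gene Gli1 is active, and Rosa26:lox-STOP-lox-tdTomato, a reporter that Cre switches on for good. Each library held the sorted cells of 1 animal's common bile duct, about 1000 of them, labelled as peribiliary mesenchymal cells and copied to cDNA by a Smart-seq3 protocol. The age of the animals and the time of Cre induction were not given in the sources used here. No sham-operated group is among the libraries, so what surgery did and what the blocked duct did cannot be told apart.

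Gli1 is a transcription factor of the hedgehog pathway, and cells that express it lie around ducts and vessels in many organs, where their descendants are known to add to the fibroblasts and myofibroblasts of scars. Ligation of the common bile duct stops bile flow, raises pressure in the duct and sets off growth of the duct lining and scarring around it. The peribiliary mesenchyme is the wall that scars, and it exchanges signals with the duct lining through secreted ligands, their binding proteins and their receptors.

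By day 4 of ligation, 1332 genes were higher and 994 were lower at an adjusted p under 0.05, which is 13.6% of the genes tested, 7.77% higher and 5.8% lower. Genes that had no count in 1 group throughout made up a large part of the rises: 448 of the 1332 had no count in any uninjured library, and 369 of those averaged under 5 CPM (counts scaled to a common library size) after ligation. Of the 464 tested genes with no count in 1 group, 463 were called. Such genes passed the count filter only through the other group, so their calls were all but fixed in advance. Their calls and adjusted p-values below describe detection in 1 group and add no further support. Among genes with counts in both groups, 884 were higher and 979 lower. When each library was left out in turn, 332 genes (1.94% of those tested) were called in all 6 of the refits, 133 of them higher and 199 lower, and these lead the accounts below. A log2 change is given relative to the median of all tested genes, which lay 0.07 above 0, with its standard error (SE), and CPM values, scaled by the trimmed mean of M-values, compare 1 gene between libraries, not genes with each other. Where 1 group had no count, the fold is a lower bound computed with 3 counts per library for that group, which covers counting error only: among genes too low to test, Cdh19 (named after its values were seen) had 0, 0 and 159 counts in the uninjured libraries.

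The libraries held 19100111 to 26219602 counts. The uninjured ones detected 17121 to 20753 genes and correlated with each other at 0.857 to 0.906 (log2 CPM across genes), whereas the ligated ones detected 23482 to 24964 genes and correlated at 0.956 to 0.973. The 11 fibroblast markers summed to 37959 to 45482 CPM without injury and to 71738 to 74997 CPM after ligation, so markers of the labelled cell type were abundant in every library. Of these markers 5 rose, 3 fell and 3 were not called, with a median log2 change of -0.07, so the higher sum does not describe each marker. The 14 mesothelial markers summed to 433 to 1689 CPM without injury and to 97.1 to 150.4 CPM after ligation, and the 14 smooth muscle and pericyte markers to 188 to 301 CPM and 1513 to 1729 CPM. Sums of the 15 cholangiocyte markers (163 to 746 CPM against 333 to 421 CPM) and of the 16 immune markers (65.8 to 232 CPM against 46.6 to 115 CPM) overlapped between the groups. Cd74, given below, was the greater part of the immune sum without injury and fell. Of 11 immune markers tested, 2 rose, each from no count without injury, and 1 fell (median log2 change 1.21). The share called was 27.3%, beside 13.6% of all genes, and the immune sum does not describe each marker. In bulk libraries, fewer cells of a type and less RNA per cell cannot be told apart.

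**Figure D1:**
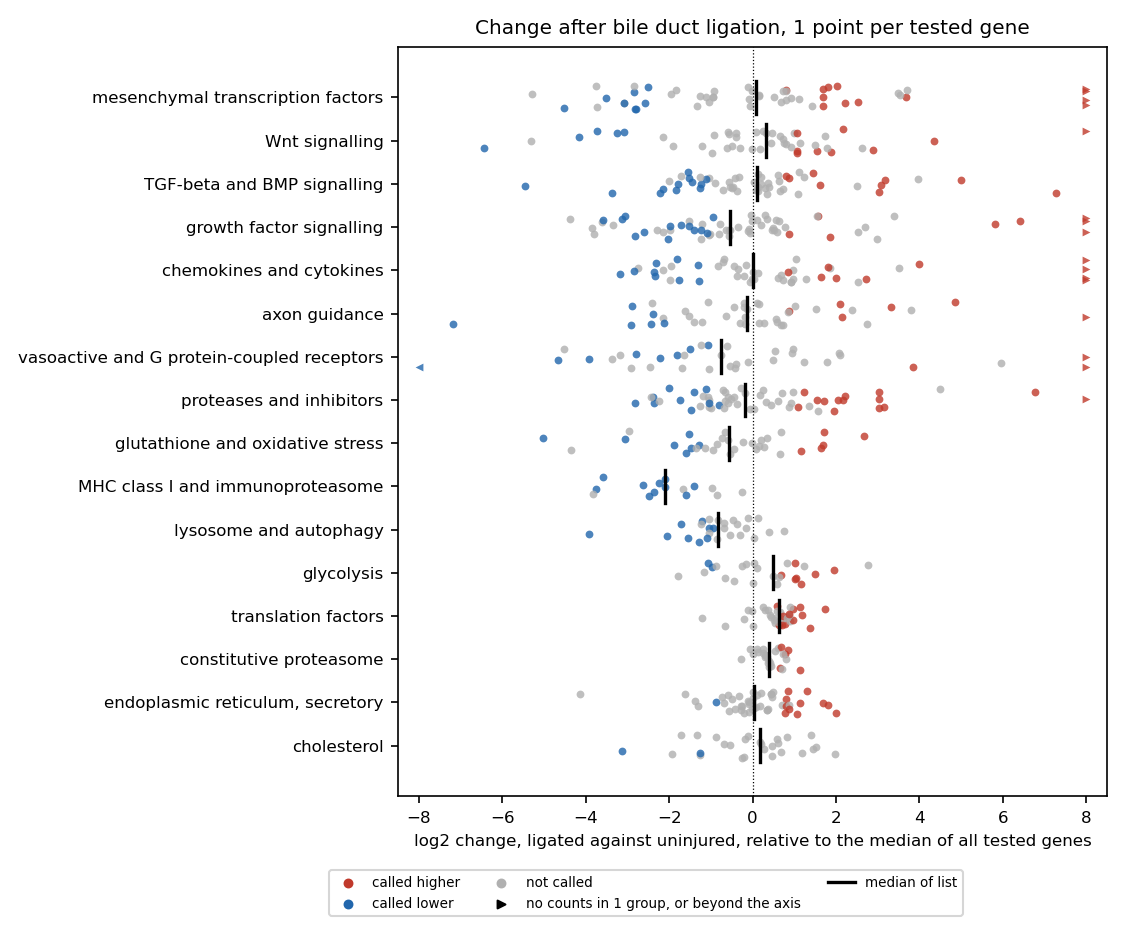
Each point is the log2 change of 1 tested gene, relative to the median of all tested genes (horizontal axis, drawn to 8 in each direction), in 16 gene lists (vertical axis), red where called higher, blue where called lower and grey where not called. Triangles at the edge are genes with no count in 1 group or a change beyond the axis, and black bars are list medians, lowest at -2.10 for MHC class I and immunoproteasome genes and highest at 0.63 for translation factors.

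Mesenchymal transcription factors moved in both directions. Of 52 tested, 13 rose and 8 fell, with a median log2 change of 0.07 beside 0 for all genes. Runx1, a runt-domain factor best known from blood formation and also from activated mesenchyme, had 17.5, 18.6 and 16.8 CPM without injury and 134, 150.4 and 127 CPM after ligation (log2 change 2.89, SE 0.17, adjusted p = 6.53e-04). Sox4, an SRY-box factor of progenitor cells, had 24.6, 25.6 and 30.2 CPM without injury and 142, 126 and 123 CPM after ligation (log2 change 2.21, SE 0.17, adjusted p = 0.00125). Snai1, the zinc-finger repressor known for its part in epithelial-mesenchymal transition, had 54.6, 78.6 and 80.6 CPM without injury and 228, 243 and 257 CPM after ligation (log2 change 1.70, SE 0.20, adjusted p = 0.00485). In each of the 3 the ligated libraries stood well above the uninjured ones with no overlap, and the libraries of a group lay close together. Ebf2, a helix-loop-helix factor that marks perivascular and adipose precursors, went the other way, from 83.5, 85.9 and 81.3 CPM to 4.11, 3.69 and 3.58 CPM (log2 change -4.53, SE 0.20, adjusted p = 5.08e-04). Its ligated libraries were all far below its uninjured ones, and the spread within either group was small beside that distance. Hand2, a factor of visceral and limb mesenchyme, had 30.8, 15.5 and 29.1 CPM without injury and 113, 101 and 109 CPM after ligation (log2 change 2.03, SE 0.29, adjusted p = 0.00901). Creb3l1, a membrane-bound factor that raises collagen secretion, had 69.6, 40.2 and 58.6 CPM without injury and 150.1, 209 and 209 CPM after ligation (log2 change 1.68, SE 0.26, adjusted p = 0.0112). Hand2 and Creb3l1 were not called without ligated replicate 2 or 3, with an adjusted p of up to 0.0668.

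Klf4, Klf2, Nr4a1, Dusp1, Errfi1 and Btg2, each known to respond quickly to outside stimuli, were lower. They form no list of their own here, so they do not describe such genes as a group. Others rose: in the fit of all libraries described below, Rgs2 and Sgk1 were called higher after ligation (log2 changes 3.78, SE 0.63, and 1.10, SE 0.32). Rgs2 averaged 6.28 ± 2.13 CPM without injury and 96.6 ± 97.0 CPM after ligation (SD, n = 3 each), so its ligated libraries differed widely. Sgk1 averaged 30.3 ± 4.57 CPM and 72.4 ± 13.2 CPM. Klf4 had 419.7, 342 and 289 CPM without injury and 69.1, 50.3 and 39.3 CPM after ligation (log2 change -2.79, SE 0.27, adjusted p = 0.00328) and Klf2 had 290.4, 400.4 and 412 CPM without injury and 89.8, 53.2 and 59.8 CPM after ligation (log2 change -2.51, SE 0.27, adjusted p = 0.00433); these are related zinc-finger factors. Nr4a1, an orphan nuclear receptor and immediate-early gene, had 266, 189 and 362 CPM without injury and 40.5, 48.6 and 38.8 CPM after ligation (log2 change -2.74, SE 0.28, adjusted p = 0.00348). The highest ligated library was below the lowest uninjured one for all 3. Dusp1, the phosphatase that shuts off stress-activated kinases, had 1629, 1491 and 791 CPM without injury and 172, 88.3 and 139 CPM after ligation (log2 change -3.36, SE 0.38, adjusted p = 0.00537). Errfi1, the feedback inhibitor of the EGF receptor, had 296, 377 and 284 CPM without injury and 60.9, 39.9 and 69.3 CPM after ligation (log2 change -2.56, SE 0.26, adjusted p = 0.00357). Btg2, an antiproliferative early gene, had 264, 202 and 178 CPM without injury and 46.6, 45.4 and 25.2 CPM after ligation (log2 change -2.52, SE 0.30, adjusted p = 0.0063). The ligated libraries of these 3 genes, too, lay wholly below the uninjured ones.

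Nuclear receptors that were called were mostly lower. Of 23 tested beside the bile acid receptors, 1 rose and 6 fell. The glucocorticoid receptor gene Nr3c1 had 229, 270.1 and 237 CPM without injury and 78.9, 102 and 88.8 CPM after ligation (log2 change -1.52, SE 0.17, adjusted p = 0.00538). No library of one group reached the range of the other. Nr1h3, which encodes the oxysterol receptor LXR alpha, had 51, 30.1 and 40.5 CPM without injury and 10.3, 5.89 and 2.49 CPM after ligation (log2 change -2.77, SE 0.56, adjusted p = 0.0259). Nr2f2, an orphan receptor of mesenchyme and veins, was the 1 that rose, with 161, 93 and 88.6 CPM without injury and 389, 317 and 287 CPM after ligation (log2 change 1.47, SE 0.28, adjusted p = 0.0205). Among receptors for bile acids, Gpbar1, the membrane receptor TGR5, had 7.73, 5.66 and 18.9 CPM without injury and 36.7, 49.3 and 43.9 CPM after ligation (log2 change 1.94, SE 0.49, adjusted p = 0.0415), while Nr1h4, the nuclear receptor FXR, averaged 19 ± 11.2 CPM and 3.47 ± 3.52 CPM (SD, n = 3 each) and was not called (adjusted p = 0.163). Nr1h3 was not called without uninjured replicate 1 or ligated replicate 2 or 3, with an adjusted p of up to 0.11. Nr2f2 was not called without uninjured replicate 2 or any 1 ligated library, with an adjusted p of up to 0.092. Gpbar1 was not called without uninjured replicate 1 or 2 or any 1 ligated library, with an adjusted p of up to 0.155. Of the 18 glucocorticoid targets tested, 1 rose and 2 fell, and their median change was -0.90. The share called was 16.7%, beside 13.6% of all genes.

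**Figure D2:**
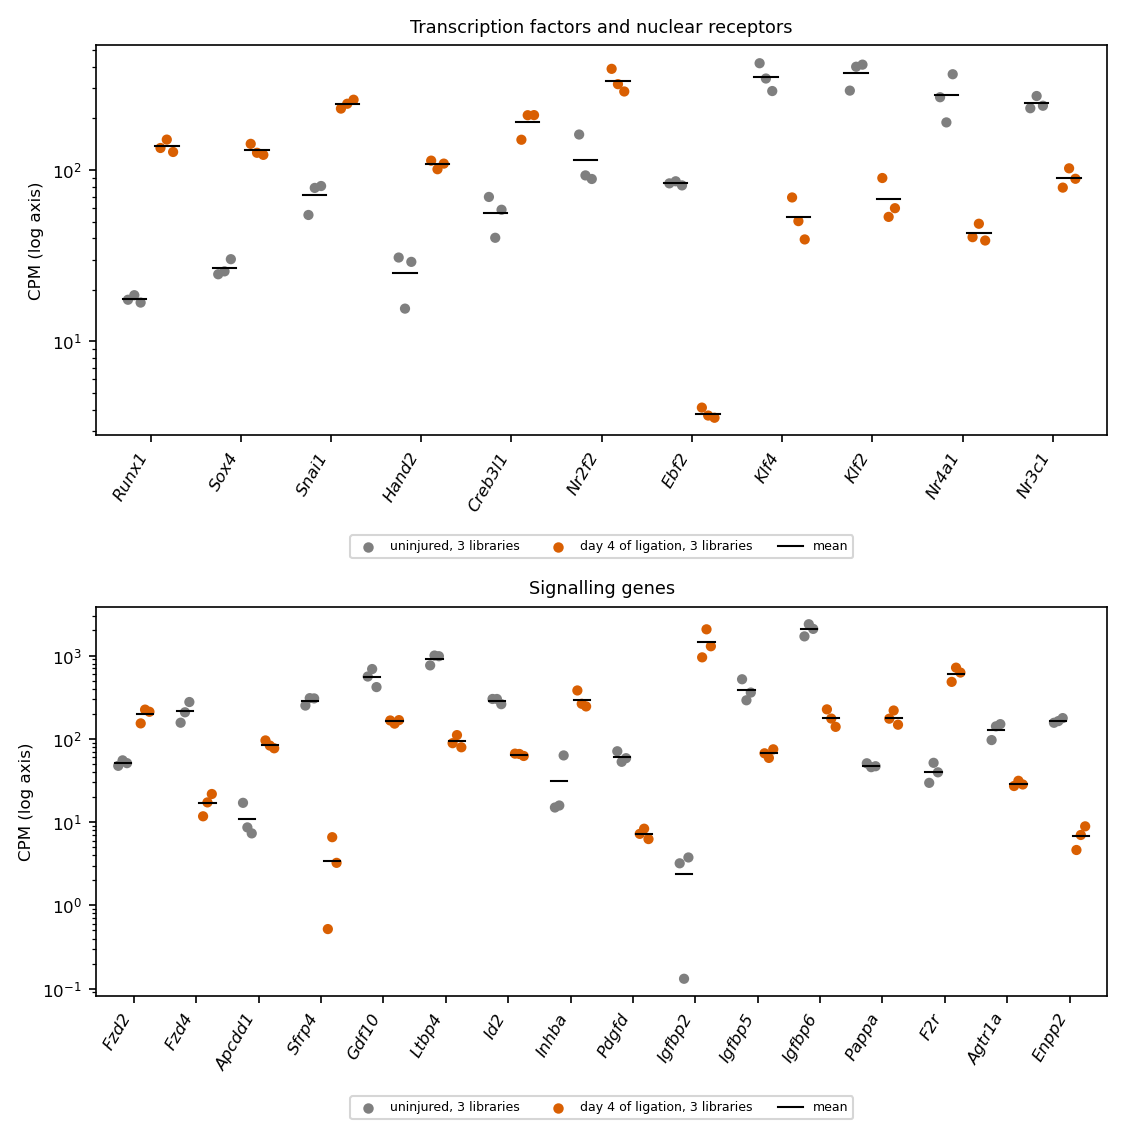
Each point is 1 library's level in CPM (log axis) of a transcription factor or nuclear receptor (upper panel) or a signalling gene (lower panel), grey for the 3 uninjured and orange for the 3 ligated libraries, with the mean as a bar. Runx1, Sox4 and Snai1 sit higher after ligation and Ebf2 and Nr3c1 lower, with no overlap between the groups, and Igfbp2 shows the widest gap among the signalling genes.

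Wnt ligands bind Frizzled receptors and are held in check by secreted inhibitors. Of 45 Wnt pathway genes tested, 9 rose and 5 fell, with a median change of 0.32. Of 15 receptors, 4 rose and 1 fell. The fall was that of Fzd4, from 156, 208 and 277 CPM to 11.7, 17.3 and 21.8 CPM (log2 change -3.73, SE 0.33, adjusted p = 0.00246). Fzd2 rose from 47.4, 55.2 and 51.1 CPM to 153, 224 and 211 CPM (log2 change 1.87, SE 0.20, adjusted p = 0.0035). The ranges of the groups lay apart for both receptors. Apcdd1, a membrane inhibitor of Wnt and BMP signalling that is itself a Wnt target, had 17, 8.64 and 7.32 CPM without injury and 95.7, 83.1 and 77 CPM after ligation (log2 change 2.88, SE 0.37, adjusted p = 0.00662), so that even its lowest ligated library was several times its highest uninjured one. Other Wnt target genes tested, Axin2, Tcf7, Znrf3 and Nkd1 among them, were not called (log2 changes 1.5, 1.78, -0.50 and 0.44). Wnt5a, the main ligand of the beta-catenin-independent branch, had 184, 145 and 168 CPM without injury and 378, 339.7 and 377 CPM after ligation (log2 change 1.07, SE 0.16, adjusted p = 0.00854). Its co-receptor Ror2 had 16.7, 8.6 and 14.8 CPM without injury and 34.7, 43.9 and 43.7 CPM after ligation (log2 change 1.54, SE 0.33, adjusted p = 0.0252), and the receptor Ryk had 92.7, 87.8 and 75.9 CPM without injury and 142, 222 and 201 CPM after ligation (log2 change 1.07, SE 0.21, adjusted p = 0.0214). All 3 were higher in every ligated library than in any uninjured one. Sfrp4, a secreted Wnt inhibitor, had 251, 308 and 306 CPM without injury and 0.52, 6.59 and 3.24 CPM after ligation (log2 change -6.44, SE 0.84, adjusted p = 0.00785), a near loss, while the inhibitors Dkk2 (46.9, 27.4 and 72.7 CPM without injury and 269.6, 236 and 193 CPM after ligation) and Frzb (3.35, 1.1 and 9.16 CPM without injury and 111, 96.7 and 83.9 CPM after ligation) rose (log2 change 2.18, SE 0.37, adjusted p = 0.0154) and (log2 change 4.36, SE 0.75, adjusted p = 0.0165). Wnt5a and Sfrp4 were not called without ligated replicate 3, with an adjusted p of up to 0.064. Ror2, Dkk2 and Frzb were not called without any 1 ligated library, with an adjusted p of up to 0.109. Ryk was not called without uninjured replicate 2 or ligated replicate 2 or 3, with an adjusted p of up to 0.105.

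Among 54 genes of TGF-beta and BMP signalling, 9 rose and 12 fell (median 0.11). Ltbp4, the latent TGF-beta binding protein of elastic fibres, fell from 762, 1001 and 982 CPM to 88.7, 111 and 79.2 CPM (log2 change -3.37, SE 0.21, adjusted p = 7.27e-04), whereas its relative Ltbp2 had 16.2, 36.6 and 53.8 CPM without injury and 224, 388 and 331 CPM after ligation (log2 change 3.08, SE 0.47, adjusted p = 0.0117). The 2 binding proteins thus changed in opposite directions, each with the groups apart. Gdf10, a BMP-related ligand, had 560.1, 689 and 418 CPM without injury and 166, 152 and 168 CPM after ligation (log2 change -1.85, SE 0.21, adjusted p = 0.00584). Inhba, the activin A subunit, had 15, 15.8 and 63.2 CPM without injury and 381, 264 and 245 CPM after ligation (log2 change 3.17, SE 0.63, adjusted p = 0.0235), with 1 uninjured library well above the other 2. Id2, a helix-loop-helix inhibitor and BMP target, had 301, 301 and 261 CPM without injury and 66.4, 65.8 and 62.3 CPM after ligation (log2 change -2.22, SE 0.15, adjusted p = 9.58e-04), and Id3 had 415, 503 and 483 CPM without injury and 224, 174 and 231 CPM after ligation (log2 change -1.22, SE 0.18, adjusted p = 0.012). Id2 and Id3 were lower in every ligated library. Of 9 TGF-beta and BMP target genes tested, 2 rose, 2 fell and 5 were not called (median 0.37). Pmepa1, a feedback target of TGF-beta, had 68.8, 67.8 and 94.6 CPM without injury and 199.8, 269.5 and 192 CPM after ligation (log2 change 1.45, SE 0.22, adjusted p = 0.0109), higher in all ligated libraries. Of 12 receptors, 0 rose and 3 fell: Tgfbr3 (254, 239.8 and 228 CPM without injury and 108, 65.3 and 85 CPM after ligation), Acvrl1 (104, 114 and 148 CPM without injury and 50.7, 50.01 and 40.2 CPM after ligation) and the decoy receptor Bambi (37.1, 103 and 66.8 CPM without injury and 27.7, 16.4 and 18.4 CPM after ligation), with log2 changes of -1.55, -1.45 and -1.79. Ltbp2, Id3 and Acvrl1 were not called without ligated replicate 2 or 3, with an adjusted p of up to 0.0713. Inhba was not called without uninjured replicate 2 or any 1 ligated library, with an adjusted p of up to 0.0993. Pmepa1 was not called without ligated replicate 2, with an adjusted p of up to 0.0572. Tgfbr3 was not called without ligated replicate 3, with an adjusted p of up to 0.0713. Bambi was not called without uninjured replicate 2 or 3 or any 1 ligated library, with an adjusted p of up to 0.16.

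The insulin-like growth factor (IGF) binding proteins, which hold IGF outside the cell, moved in both directions. Igfbp2 rose from 3.2, 0.132 and 3.76 CPM to 952, 2066 and 1293 CPM (log2 change 9.19, SE 1.11, adjusted p = 0.00584), which was 607 times higher, and Pappa, the protease that frees IGF from its binding proteins, had 50.9, 45.7 and 46.9 CPM without injury and 175, 219 and 148 CPM after ligation (log2 change 1.85, SE 0.20, adjusted p = 0.00348). Igfbp6 had 1699, 2378 and 2090.2 CPM without injury and 226, 175 and 139 CPM after ligation (log2 change -3.58, SE 0.25, adjusted p = 0.001), and Igfbp5 had 519, 290.4 and 359.6 CPM without injury and 67.1, 59 and 74.8 CPM after ligation (log2 change -2.61, SE 0.26, adjusted p = 0.00338). Thus 1 binding protein was close to its detection limit before injury and abundant after it, 2 others fell, and in none of the 4 genes did the groups overlap. Igfbp3, Pappa2 and Igfbp4 were not called (log2 changes 0.64, 1.55 and 0.21). Of 62 genes of growth factor signalling in all, 8 rose and 13 fell (median -0.54). The ligand Pdgfd had 70.9, 53 and 58.6 CPM without injury and 7.23, 8.34 and 6.26 CPM after ligation (log2 change -3.13, SE 0.25, adjusted p = 0.00156). Axl, the TAM family receptor tyrosine kinase, had 870.3, 871 and 1044 CPM without injury and 319.7, 349 and 343 CPM after ligation (log2 change -1.53, SE 0.15, adjusted p = 0.00338). Both were lower in every ligated library. Ddr2, a collagen receptor kinase, had 549, 479.9 and 361 CPM without injury and 144, 170.1 and 134 CPM after ligation (log2 change -1.70, SE 0.21, adjusted p = 0.00698). Ntrk2, the receptor for brain-derived neurotrophic factor, had 129, 129 and 113 CPM without injury and 45, 31.2 and 19.8 CPM after ligation (log2 change -2.02, SE 0.31, adjusted p = 0.014). Gdnf, the glial-derived neurotrophic ligand, had no count without injury and 3.64, 4.64 and 7.05 CPM after ligation, at least 35.5-fold higher. Pdgfrb, a receptor of fibroblasts and pericytes, had 106, 77.9 and 99.7 CPM without injury and 157, 192 and 199 CPM after ligation (log2 change 0.88, SE 0.19, adjusted p = 0.0242). Ddr2 was not called without ligated replicate 3, with an adjusted p of up to 0.0566. Ntrk2 was not called without ligated replicate 2, with an adjusted p of up to 0.0858. Gdnf was not called without any 1 ligated library, with an adjusted p of up to 0.101. Pdgfrb was not called without uninjured replicate 2 or ligated replicate 2 or 3, with an adjusted p of up to 0.109. The only called gene of 10 Notch pathway genes tested was the receptor Notch2, with 411, 415 and 435 CPM without injury and 158, 86.2 and 132 CPM after ligation (log2 change -1.81, SE 0.24, adjusted p = 0.00902). The share of Notch pathway genes called was 10%, beside 13.6% of all genes. Notch2 was not called without ligated replicate 3, with an adjusted p of up to 0.0629.

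YAP and TAZ act with TEAD factors to switch on genes in stretched or stiffly anchored cells. Of 18 YAP pathway and CCN family genes tested, 7 rose and 2 fell (median 0.98). Ankrd1, an ankyrin-repeat protein and widely used YAP target, had no count in any uninjured library and 20.4, 21.6 and 22.1 CPM after ligation, at least 148-fold higher (adjusted p = 0.00361). Ccn2, connective tissue growth factor, had 48.5, 68.4 and 39.2 CPM without injury and 494, 259 and 140.2 CPM after ligation (log2 change 2.45, SE 0.49, adjusted p = 0.023), and Ccn5 had 4.09, 15.7 and 15.6 CPM without injury and 76.9, 156 and 102 CPM after ligation (log2 change 3.17, SE 0.57, adjusted p = 0.0189). Ccn3, a further matrix-bound CCN protein, fell from 459.8, 482 and 569 CPM to 69.9, 26.2 and 22.8 CPM (log2 change -3.74, SE 0.48, adjusted p = 0.00785). The family thus split, with the ligated libraries of Ccn2 and Ccn5 above and those of Ccn3 below every uninjured library. Tead1, a partner factor of YAP, had 54.6, 33 and 21.8 CPM without injury and 130.0, 141 and 124 CPM after ligation (log2 change 1.78, SE 0.34, adjusted p = 0.021). Ccn2 was not called without uninjured replicate 1 or ligated replicate 1 or 2, with an adjusted p of up to 0.0952. Ccn5 was not called without ligated replicate 2 or 3, with an adjusted p of up to 0.0897. Tead1 was not called without uninjured replicate 2 or any 1 ligated library, with an adjusted p of up to 0.1. The 250 bases before the start of Ankrd1 (RefSeq, GRCm38.p6, chr19:36119845-36120094, minus strand, 5′ to 3′) are shown because this gene went from no count to detection in every ligated library and its promoter holds the TEAD motif GGAATG, in capitals, 210 to 205 and 123 to 118 bases before the start:
Ankrd1: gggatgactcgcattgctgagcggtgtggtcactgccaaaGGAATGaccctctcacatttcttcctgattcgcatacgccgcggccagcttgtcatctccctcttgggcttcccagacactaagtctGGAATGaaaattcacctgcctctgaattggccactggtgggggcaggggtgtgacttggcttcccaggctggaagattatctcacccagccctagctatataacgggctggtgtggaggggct
Of the 9 called genes of this list, 3 have a promoter in the RefSeq table, and all 3 hold GGAATG or its reverse complement in 250 bases, as do 12.6% of the 32851 promoters of that length. They are Ankrd1 and Ccn1, called higher, and Axl, called lower, and Ccn1 is named for this match only. A match is a description of letters, not of binding.

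Chemokines and cytokines moved in both directions: of 48 ligands and receptors, 10 rose and 9 fell (median 0.02). Ccl2, which draws monocytes, had 5.22, 6.14 and 14.8 CPM without injury and 109, 141 and 187 CPM after ligation (log2 change 4.00, SE 0.49, adjusted p = 0.00574). Il33, an alarmin kept in the nucleus, had 615, 584 and 677 CPM without injury and 100.5, 109 and 188 CPM after ligation (log2 change -2.31, SE 0.28, adjusted p = 0.00627). Tnfsf13b, the B-cell survival factor BAFF, had 51, 46 and 71.2 CPM without injury and 5.41, 9.54 and 4.49 CPM after ligation (log2 change -3.18, SE 0.39, adjusted p = 0.00643). The groups were apart in each case, with Ccl2 above and the other two below the uninjured range. Ackr3, the scavenger receptor for Cxcl12, had 490.3, 688 and 843 CPM without injury and 108, 163 and 143 CPM after ligation (log2 change -2.36, SE 0.27, adjusted p = 0.00537), and Cxcl12 itself, a ligand that holds leukocytes and progenitors in place, had 760.0, 881 and 722 CPM without injury and 236, 343 and 430.5 CPM after ligation (log2 change -1.30, SE 0.24, adjusted p = 0.0242). Tnfrsf11b, osteoprotegerin, the soluble decoy for RANK ligand, had 138, 151 and 124 CPM without injury and 43, 47.4 and 37.6 CPM after ligation (log2 change -1.76, SE 0.17, adjusted p = 0.00348), and Tnfsf11, the RANK ligand, had no count without injury and 2.29, 4.31 and 4.07 CPM after ligation. The decoy and its ligand thus went opposite ways, with low levels of the ligand. Il11, an IL-6 family cytokine linked to fibrosis, had no count without injury and 22, 10.6 and 12.3 CPM after ligation, at least 104-fold higher. Il6 had 18, 10.8 and 10.2 CPM without injury and 46.9, 60.05 and 57.4 CPM after ligation (log2 change 2.01, SE 0.30, adjusted p = 0.0106), and its receptor Il6ra had 70.6, 65.6 and 46.8 CPM without injury and 18, 9.66 and 10.3 CPM after ligation (log2 change -2.34, SE 0.34, adjusted p = 0.0112). Il1r1, the receptor for interleukin 1, had 77.3, 51.1 and 63.1 CPM without injury and 168, 267 and 273 CPM after ligation (log2 change 1.82, SE 0.26, adjusted p = 0.00907), and Cxcl14 had 19.9, 33.8 and 37.2 CPM without injury and 221, 104 and 303 CPM after ligation (log2 change 2.72, SE 0.45, adjusted p = 0.0148). Every one of these genes had its 2 groups apart. Cxcl12 was not called without uninjured replicate 2 or any 1 ligated library, with an adjusted p of up to 0.109. Tnfsf11 was not called without any 1 ligated library, with an adjusted p of up to 0.109. Il11, Il6, Il6ra and Il1r1 were not called without ligated replicate 2 or 3, with an adjusted p of up to 0.0713. Cxcl14 was not called without ligated replicate 1 or 3, with an adjusted p of up to 0.0642. Of the 16 immune markers, 6 were at 0 in all uninjured libraries and 1 in all ligated libraries, and the part of immune cells in these values was not tested.

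Guidance molecules are known from growing axons and are also made by mesenchyme. Of 41 tested, 6 rose and 6 fell (median -0.12). The secreted semaphorins Sema3c (439, 351 and 262 CPM without injury and 36.3, 63.1 and 48.1 CPM after ligation) and Sema3d (77.5, 62.6 and 76.6 CPM without injury and 8.52, 12.7 and 9.28 CPM after ligation) fell (log2 change -2.90, SE 0.30, adjusted p = 0.0036) and (log2 change -2.89, SE 0.25, adjusted p = 0.00214). The ephrin receptors Epha3 (96.7, 65.3 and 88.8 CPM without injury and 282, 459.9 and 419 CPM after ligation) and Epha4 (23.5, 9.52 and 21.2 CPM without injury and 161, 216 and 191 CPM after ligation) rose (log2 change 2.14, SE 0.26, adjusted p = 0.00537) and (log2 change 3.32, SE 0.38, adjusted p = 0.00452). For all 4 genes the ranges of the groups were separate. Sema3a, the semaphorin that repels sensory axons, rose instead, with 5.71, 6.71 and 9.46 CPM without injury and 24.4, 41 and 32.7 CPM after ligation (log2 change 2.09, SE 0.36, adjusted p = 0.016), and Ntn1, netrin 1, had 44.4, 60.2 and 45.4 CPM without injury and 12.6, 12.8 and 3.96 CPM after ligation (log2 change -2.42, SE 0.48, adjusted p = 0.0255). Sema3a was not called without ligated replicate 2 or 3, with an adjusted p of up to 0.102. Ntn1 was not called without uninjured replicate 2 or ligated replicate 1 or 2, with an adjusted p of up to 0.1.

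**Figure D3:**
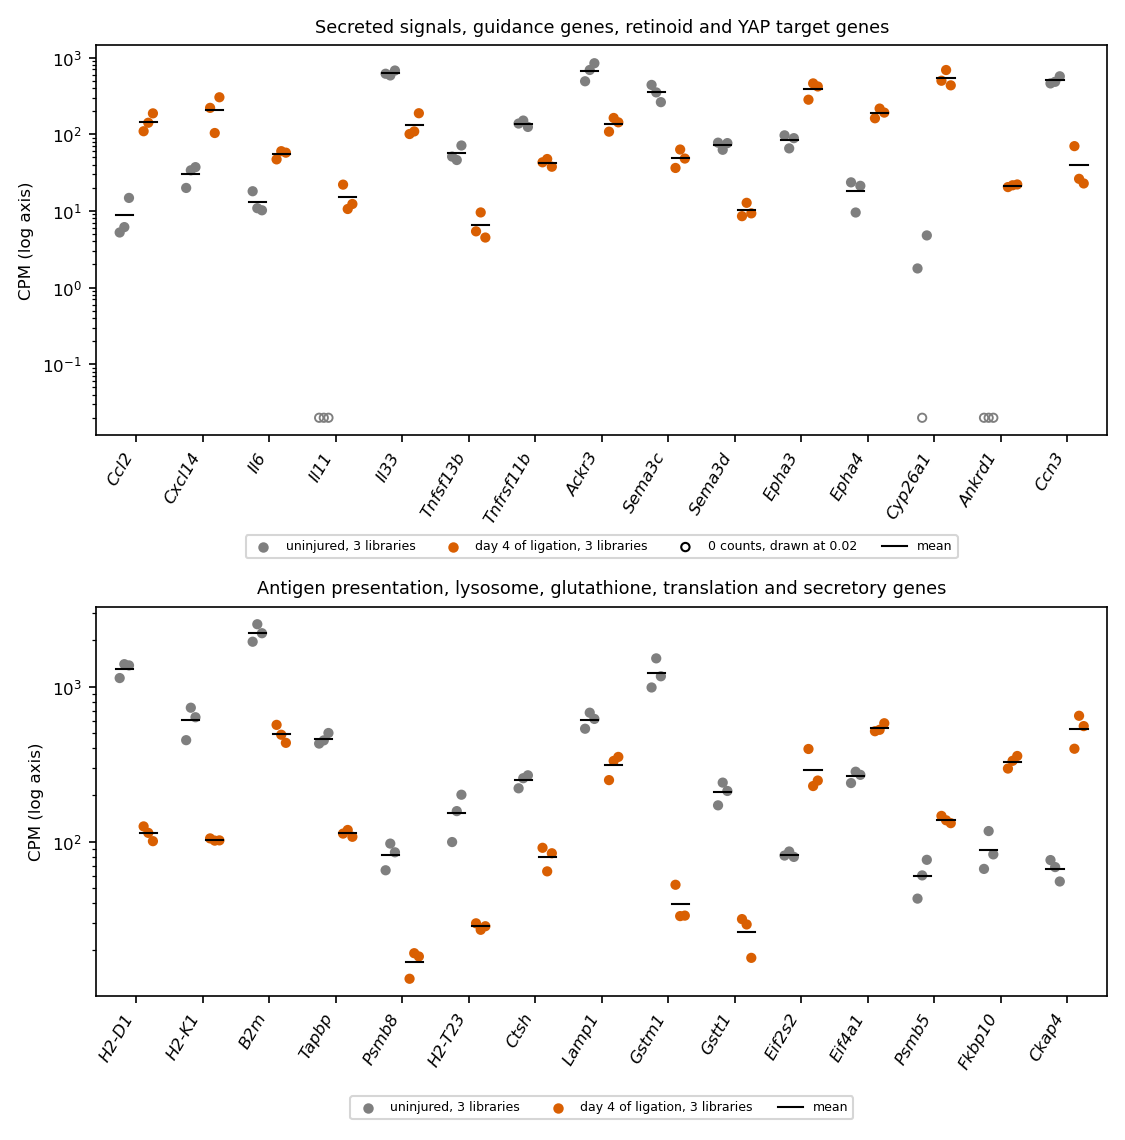
Each point is 1 library's level in CPM (log axis), grey for the 3 uninjured and orange for the 3 ligated libraries, with open points for 0 counts drawn at 0.02 and the mean as a bar where no library of the group is at 0. The upper panel shows secreted signals, guidance genes, Cyp26a1, Ankrd1 and Ccn3, and the lower panel antigen presentation genes, all lower after ligation, beside lysosomal, glutathione, translation and secretory genes.

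Called genes of vasoactive and lipid signalling, most of them receptors, were mostly lower, with 3 rises and 8 falls among 35 (median -0.75). Of these, 2 rises were from no count without injury and 1 fall was to no count after ligation. The share called was 31.4%, beside 13.6% of all genes. F2r, the thrombin receptor PAR1, rose from 29.6, 51.5 and 39.6 CPM to 483, 716 and 625 CPM (log2 change 3.85, SE 0.28, adjusted p = 0.00104). Enpp2, autotaxin, which makes lysophosphatidic acid, fell from 156, 163 and 177 CPM to 4.63, 7.01 and 8.9 CPM (log2 change -4.66, SE 0.29, adjusted p = 7.27e-04). Both changes left a wide gap between the groups. Agtr1a, the angiotensin II receptor, had 96.7, 141 and 150.2 CPM without injury and 27.1, 31.3 and 28.3 CPM after ligation (log2 change -2.23, SE 0.22, adjusted p = 0.00348). Calcrl had 42.2, 30.3 and 47 CPM without injury and 7.33, 5.1 and 5.77 CPM after ligation (log2 change -2.78, SE 0.32, adjusted p = 0.00545) and Ramp2, its partner in the adrenomedullin receptor, had 127, 223 and 146 CPM without injury and 54, 44.6 and 49.7 CPM after ligation (log2 change -1.81, SE 0.25, adjusted p = 0.00983). These 3 receptor genes were below the uninjured range in every ligated library. The large-conductance potassium channel gene Kcnma1, known from smooth muscle, had 4.34, 1.32 and 5.65 CPM without injury and 45.7, 73.8 and 63.6 CPM after ligation (log2 change 3.95, SE 0.57, adjusted p = 0.00972), in step with the sum of the smooth muscle and pericyte markers given above, and the part of such cells in it was not tested. Ramp2 and Kcnma1 were not called without ligated replicate 2 or 3, with an adjusted p of up to 0.0699. Tek, the angiopoietin receptor and 1 of the 14 endothelial markers, fell from 145, 116 and 113 CPM to 0.936, 1.16 and 2.19 CPM (log2 change -6.50, SE 0.40, adjusted p = 7.27e-04), the only fall among 10 endothelial markers tested. The endothelial markers Flt1, Erg and Lyve1 rose from no count to 9.1, 4.11 and 7.47 CPM, 1.09, 1.04 and 1.55 CPM and 2.13, 2.28 and 0.528 CPM (adjusted p = 0.0147, 0.022 and 0.0295), and the median change of the list was 1.17. Flt1 was not called without any 1 ligated library, with an adjusted p of up to 0.0984. Erg was not called without uninjured replicate 2 or any 1 ligated library, with an adjusted p of up to 0.109. Lyve1 was not called without any 1 of the 6 libraries, with an adjusted p of up to 0.119. Cdh5, Kdr and Egfl7 were not called and averaged 0.175 ± 0.304 CPM, 9.5 ± 5.55 CPM and 1.07 ± 1.81 CPM without injury and 1.12 ± 0.605 CPM, 2.03 ± 2 CPM and 5.95 ± 0.967 CPM after ligation (SD, n = 3 each). All 14 endothelial markers together summed to 133 to 166 CPM without injury and 27.1 to 32.5 CPM after ligation, of which Tek was the greater part without injury.

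Retinoic acid genes showed 1 of the widest gaps. Cyp26a1 (chromosome 19, chr19:37697798-37701536 in GENCODE M21, plus strand), the enzyme that breaks down retinoic acid and is itself switched on by it, had 1.77, 0 and 4.78 CPM without injury and 498, 687 and 434 CPM after ligation (log2 change 7.89, SE 1.26, adjusted p = 0.0134). One uninjured library was at 0 and the other two were below 5 CPM, whereas the lowest ligated library was at 434 CPM. The retinoid binding proteins Crabp1 and Crabp2 had no count without injury and 6.19, 11.9 and 22.4 CPM and 7.64, 9.37 and 9.46 CPM after ligation, at least 93.6-fold and 61.3-fold higher. Aldh1a2, which makes retinoic acid, had 89.5, 92.5 and 125 CPM without injury and 19.7, 52 and 35.4 CPM after ligation (log2 change -1.58, SE 0.37, adjusted p = 0.0411). Dhrs3, which turns retinal back to retinol, had 284, 218 and 172 CPM without injury and 73.4, 54 and 98.5 CPM after ligation (log2 change -1.64, SE 0.29, adjusted p = 0.0211). Cyp26a1 and Crabp1 were not called without ligated replicate 2 or 3, with an adjusted p of up to 0.0852. Crabp2 was not called without any 1 ligated library, with an adjusted p of up to 0.0821. Aldh1a2 was not called without any 1 of the 6 libraries, with an adjusted p of up to 0.15. Dhrs3 was not called without uninjured replicate 2 or any 1 ligated library, with an adjusted p of up to 0.0956. The other 8 of 13 retinoid genes tested were not called. The promoter of Cyp26a1 (RefSeq, GRCm38.p6, chr19:37697558-37697807, plus strand, 5′ to 3′) is shown because the gene is a known retinoic acid target with a change of this size, and its 250 bases hold 1 match, in capitals and on the reverse strand, to a retinoic acid response element, searched as 2 copies of AGNTCA (N is any base) in the same direction with 5 bases between them, 32 to 16 bases before the start:
Cyp26a1: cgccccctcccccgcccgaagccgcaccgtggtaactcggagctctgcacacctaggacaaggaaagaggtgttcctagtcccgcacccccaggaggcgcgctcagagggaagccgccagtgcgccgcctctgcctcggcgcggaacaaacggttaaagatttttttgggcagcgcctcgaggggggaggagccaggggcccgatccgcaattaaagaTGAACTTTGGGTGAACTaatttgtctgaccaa
This element was found on either strand in 0.198% of the 32851 promoters of the same length, and in 1 of the 4 called retinoid genes with an entry in that table. It shares no letters with a match to the other motifs searched.

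Matrix proteases changed in both directions, and of the 11 genes listed here as inhibitors, those that were called all fell. Serpinb2, given below, was not among them and was called higher. Of 57 tested, 14 rose and 10 fell (median -0.19), the falls being 4 inhibitors, 3 genes of the ADAM and ADAMTS families, 2 cathepsins and 1 metalloproteinase. Plaur, the urokinase receptor, had 10.5, 11.2 and 25.1 CPM without injury and 134, 135 and 167 CPM after ligation (log2 change 3.15, SE 0.39, adjusted p = 0.0061). The procollagen N-proteinase Adamts2 had 289, 372 and 254 CPM without injury and 1095, 847 and 865 CPM after ligation (log2 change 1.55, SE 0.21, adjusted p = 0.00697), and the proteoglycan-cleaving relatives Adamts12 (25.9, 28 and 16.1 CPM without injury and 98, 121 and 122 CPM after ligation) and Adamts15 (42.3, 55 and 45.9 CPM without injury and 139, 173 and 182 CPM after ligation) rose (log2 change 2.21, SE 0.26, adjusted p = 0.00517) and (log2 change 1.72, SE 0.19, adjusted p = 0.00412). All of these were above the uninjured range in each ligated library. Adamts5, an aggrecan-cleaving member of the same family, fell instead, with 349, 394 and 362 CPM without injury and 189.6, 155 and 93.2 CPM after ligation (log2 change -1.40, SE 0.27, adjusted p = 0.0253). Mmp14, the membrane-bound collagenase, had 257, 286 and 339.7 CPM without injury and 614, 674 and 684 CPM after ligation (log2 change 1.09, SE 0.16, adjusted p = 0.00903). Timp2, a metalloproteinase inhibitor, had 1430.2, 1681 and 1267 CPM without injury and 340.4, 449.6 and 356 CPM after ligation (log2 change -2.0, SE 0.19, adjusted p = 0.00304). Reck, a membrane-anchored inhibitor, had 56.5, 72.1 and 90.8 CPM without injury and 22.5, 27.2 and 33 CPM after ligation (log2 change -1.48, SE 0.26, adjusted p = 0.0207). The inhibitors were below the uninjured range in each ligated library. Adamts5 was not called without uninjured replicate 2 or ligated replicate 2 or 3, with an adjusted p of up to 0.109. Mmp14 was not called without ligated replicate 2 or 3, with an adjusted p of up to 0.064. Reck was not called without uninjured replicate 2 or any 1 ligated library, with an adjusted p of up to 0.109.

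Cell-matrix receptors and glycosaminoglycan genes changed in a few members. The integrin subunit genes Itga5 (86.8, 63.9 and 62.9 CPM without injury and 299, 245 and 274 CPM after ligation) and Itgb1 (385, 454 and 435 CPM without injury and 1049.9, 885 and 1000.0 CPM after ligation), which together form the main fibronectin receptor, both rose (log2 change 1.87, SE 0.19, adjusted p = 0.00328) and (log2 change 1.14, SE 0.15, adjusted p = 0.00643). Itga11, a collagen-binding subunit that also pairs with the product of Itgb1, fell from 94.2, 111 and 55.9 CPM to 22.8, 10.6 and 11.1 CPM (log2 change -2.63, SE 0.42, adjusted p = 0.0154). Among 18 integrin genes there were 3 rises and 2 falls (median 0.73). Ugdh, which makes the UDP-glucuronate used for hyaluronan, had 751, 603 and 612 CPM without injury and 188, 185 and 252 CPM after ligation (log2 change -1.72, SE 0.19, adjusted p = 0.00537), and the hyaluronan synthase Has1 had 156, 179 and 216 CPM without injury and 58.5, 29.2 and 60.2 CPM after ligation (log2 change -1.97, SE 0.32, adjusted p = 0.0157). Cd44, the main hyaluronan receptor, averaged 111 ± 41.4 CPM and 229 ± 25.7 CPM (SD, n = 3 each) and was not called (adjusted p = 0.0577). Hs6st2, which adds 6-O-sulphate to heparan sulphate, had no count without injury and 43.7, 80.3 and 72.1 CPM after ligation, at least 454-fold higher (adjusted p = 0.00207). The synthase and its substrate enzyme were lower in every ligated library, and the sulphotransferase was detected only after ligation. Among 11 hyaluronan genes tested, 2 rose, 1 of them from no count without injury, and 3 fell (median 0.97). The falls named here thus do not describe the hyaluronan genes as a group. Itgb1 was not called without ligated replicate 3, with an adjusted p of up to 0.0527. Itga11 was not called without ligated replicate 2 or 3, with an adjusted p of up to 0.0896. Has1 was not called without ligated replicate 1 or 3, with an adjusted p of up to 0.0678.

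Most genes of antigen presentation through MHC class I fell. Of 15 MHC class I and immunoproteasome genes tested, 10 fell and 0 rose, with a median log2 change of -2.10 beside 0 for all genes, and 7 of the falls were called in every refit without 1 library. The class I heavy chain genes H2-D1 (1136, 1396 and 1371 CPM without injury and 125, 114 and 101 CPM after ligation) and H2-K1 (451, 731 and 635 CPM without injury and 105, 102 and 102 CPM after ligation) fell (log2 change -3.59, SE 0.18, adjusted p = 5.08e-04) and (log2 change -2.63, SE 0.21, adjusted p = 0.0017). B2m, the light chain shared by all class I molecules, had 1948, 2527 and 2211 CPM without injury and 567, 489 and 434 CPM after ligation (log2 change -2.23, SE 0.18, adjusted p = 0.00166). Levels within the ligated group lay close together, and none reached the lowest uninjured library. H2-T23, a nonclassical class I gene, had 99.4, 157 and 201 CPM without injury and 29.7, 27 and 28.5 CPM after ligation (log2 change -2.49, SE 0.28, adjusted p = 0.00537). Tapbp, tapasin, which loads peptide, had 429, 450.1 and 502 CPM without injury and 113, 119 and 107 CPM after ligation (log2 change -2.10, SE 0.15, adjusted p = 0.00104). Psmb8, an immunoproteasome subunit, had 65.4, 97.1 and 85.4 CPM without injury and 13, 19.1 and 18.2 CPM after ligation (log2 change -2.37, SE 0.26, adjusted p = 0.00453). Again the groups were fully apart for each gene. The class I heavy chain genes are near-identical copies of each other in part, and the counting step that assigned shared reads is not given in the sources used here. Psme1, Tap1 and H2-Q4 were not called (log2 changes -0.84, -0.97 and -3.81). Cd74 and H2-Aa, which belong to MHC class II presentation and mark antigen-presenting cells, fell as well, Cd74 from 103, 46.8 and 208 CPM to 0.728, 2.28 and 6.41 CPM (log2 change -5.29, SE 0.94, adjusted p = 0.0201) and H2-Aa from 23.8, 34.2 and 30.3 CPM to 0, 0.207 and 0 CPM (adjusted p = 0.00843). Cd74 was not called without ligated replicate 1 or 2, with an adjusted p of up to 0.109.

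The constitutive proteasome, whose subunits Psmb8 and its relatives replace, did not follow the immunoproteasome. Of 26 constitutive subunits tested, 5 rose and 0 fell (median 0.40), so 19.2% were called beside 13.6% of all genes. Psmb5, the subunit that Psmb8 replaces, had 42.9, 60.6 and 76.3 CPM without injury and 147, 137 and 132 CPM after ligation (log2 change 1.14, SE 0.24, adjusted p = 0.0232), while Psmb8 went down as given above. The 2 subunits of this pair thus changed in opposite directions, with every ligated library outside the uninjured range in both. Psmb5 was not called without uninjured replicate 2 or any 1 ligated library, with an adjusted p of up to 0.109. The promoters of B2m (RefSeq, GRCm38.p6, chr2:122147437-122147686, plus strand) and H2-T23 (chr17:36032702-36032951, minus strand), both genes that fell, are printed 5′ to 3′ because each holds a match, in capitals, to the core of the interferon-stimulated response element, searched as 2 copies of GAAA with 2 bases between them, 139 to 130 bases before the start of B2m and, on the reverse strand, 124 to 115 bases before that of H2-T23:
B2m: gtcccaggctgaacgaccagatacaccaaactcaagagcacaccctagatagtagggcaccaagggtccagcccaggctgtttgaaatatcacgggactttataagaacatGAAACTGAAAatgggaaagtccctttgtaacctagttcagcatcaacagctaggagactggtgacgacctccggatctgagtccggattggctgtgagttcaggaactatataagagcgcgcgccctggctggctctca
H2-T23: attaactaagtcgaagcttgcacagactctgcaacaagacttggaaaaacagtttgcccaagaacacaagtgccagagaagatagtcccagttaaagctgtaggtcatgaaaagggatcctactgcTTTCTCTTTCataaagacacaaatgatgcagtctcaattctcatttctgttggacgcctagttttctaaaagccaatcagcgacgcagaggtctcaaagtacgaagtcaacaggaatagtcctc
Of the 10 called genes of the class I list, 9 have a promoter in the table and 2 hold this motif on either strand, as do 2.98% of the 32851 promoters of that length. The letters overlap no match to the other motifs searched.

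Several lysosomal genes were lower as well: of 26 tested, 9 fell and 0 rose (median -0.84). Ctsh, a cathepsin protease, had 221, 257 and 268 CPM without injury and 91.3, 64.3 and 84.2 CPM after ligation (log2 change -1.71, SE 0.19, adjusted p = 0.00546). The membrane proteins Lamp1 (535, 679 and 619 CPM without injury and 249, 332 and 352 CPM after ligation) and Lamp2 (606, 643 and 689 CPM without injury and 333, 369 and 356 CPM after ligation) and the autophagy receptor Sqstm1 (472, 469 and 601 CPM without injury and 222, 211 and 226 CPM after ligation) had log2 changes of -1.04, -0.94 and -1.29 (SE 0.19, 0.14 and 0.16). All ligated libraries lay below all uninjured ones in these 4 genes. Lamp1 was not called without uninjured replicate 2 or any 1 ligated library, with an adjusted p of up to 0.109. Lamp2 and Sqstm1 were not called without ligated replicate 2 or 3, with an adjusted p of up to 0.0919.

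Glutathione S-transferases, which couple glutathione to reactive compounds, held the largest called falls of 32 genes of oxidative defence, of which 5 rose and 7 fell (median -0.56). Gstm1 fell from 987, 1522 and 1166 CPM to 52.7, 33.1 and 33.3 CPM (log2 change -5.02, SE 0.30, adjusted p = 7.27e-04), and Gstt1 from 171, 240.3 and 212 CPM to 31.7, 29.2 and 17.8 CPM (log2 change -3.06, SE 0.28, adjusted p = 0.00261). The gap between the groups was wide in both. Gstm2, a close copy of Gstm1 with which reads may be shared, had 309, 452 and 357 CPM without injury and 148, 133 and 125 CPM after ligation (log2 change -1.53, SE 0.19, adjusted p = 0.00785). The microsomal transferase Mgst1 had 477, 559 and 751 CPM without injury and 193, 139 and 181 CPM after ligation (log2 change -1.87, SE 0.23, adjusted p = 0.0074), and the secreted antioxidant enzymes Gpx3 (2274, 2818 and 1865 CPM without injury and 899, 829 and 883 CPM after ligation) and Sod3 (609, 899 and 715 CPM without injury and 306, 241 and 221 CPM after ligation) had log2 changes of -1.48 and -1.60. No ligated library of these genes reached the uninjured range. Gstm2, Gpx3 and Sod3 were not called without ligated replicate 2 or 3, with an adjusted p of up to 0.0679. Mgst1 was not called without ligated replicate 3, with an adjusted p of up to 0.0552. Lpl, lipoprotein lipase, fell beside them from 512, 818 and 482 CPM to 87.2, 53 and 64.7 CPM (log2 change -3.21, SE 0.31, adjusted p = 0.00298), among 3 falls and 1 rise in 38 genes of fatty acid handling (median -0.34). The share of that list called was 10.5%, beside 13.6% of all genes. Apoe, a carrier of cholesterol out of cells, had 2289, 3104 and 3839.9 CPM without injury and 664, 253 and 184 CPM after ligation (log2 change -3.14, SE 0.53, adjusted p = 0.0177), while none of the 19 cholesterol synthesis genes tested by edgeR was called. Apoe was not called without ligated replicate 2 or 3, with an adjusted p of up to 0.0987.

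Genes that make and export protein, where called, were mostly higher, by smaller amounts. Of 35 translation factors and tRNA synthetases, 13 rose and 0 fell (median 0.63). Eif2s2, the beta subunit of initiation factor eIF2, had 81.3, 86.4 and 79.7 CPM without injury and 396, 228 and 248 CPM after ligation (log2 change 1.75, SE 0.24, adjusted p = 0.00824). Eif4a1, the helicase of the cap-binding complex, had 239, 283 and 269.7 CPM without injury and 516, 527 and 581 CPM after ligation (log2 change 0.97, SE 0.15, adjusted p = 0.00915). Both were higher in every ligated library. In the endoplasmic reticulum and secretory list 11 of 49 rose and 1 fell (median 0.03). Fkbp10, a prolyl isomerase for procollagen, had 66.7, 117 and 82.8 CPM without injury and 296, 332 and 357 CPM after ligation (log2 change 1.82, SE 0.24, adjusted p = 0.00713). Ckap4, a membrane protein of the rough endoplasmic reticulum counted here with the filament genes, had 76.1, 68.5 and 55.3 CPM without injury and 397, 649 and 556 CPM after ligation (log2 change 2.93, SE 0.25, adjusted p = 0.00162). Kdelr2, a retrieval receptor, had 581, 609 and 709 CPM without injury and 1280.2, 1184 and 1167 CPM after ligation (log2 change 0.87, SE 0.15, adjusted p = 0.0131). The groups did not overlap for any of the 3. Xbp1, the effector of the unfolded protein response, was the 1 fall, with 631, 596 and 860.3 CPM without injury and 358, 388 and 446 CPM after ligation (log2 change -0.88, SE 0.20, adjusted p = 0.0403), and Dnajb9, Herpud1 and Dnajc3, targets of that response, were not called (log2 changes -1.63, -1.32 and -0.57). Eif4a1 and Kdelr2 were not called without ligated replicate 2 or 3, with an adjusted p of up to 0.0797. Xbp1 was not called without any 1 of the 6 libraries, with an adjusted p of up to 0.166. Of 25 glycolysis genes 7 rose and 2 fell (median 0.50), Gapdh with 49, 73.7 and 70.04 CPM without injury and 182, 176 and 216 CPM after ligation (log2 change 1.5, SE 0.21, adjusted p = 0.00824), and of 38 ribosome assembly genes 4 rose and 0 fell (median 0.30). The share of ribosome assembly genes called was 10.5%, beside 13.6% of all genes called and 7.77% called higher. Gapdh was not called without ligated replicate 3, with an adjusted p of up to 0.054.

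Mitosis genes had a median log2 change of 4.25 beside 0 for all genes. Of 32 mitosis genes, 30 were higher in every ligated library than in any uninjured one, a pattern found in 22.3% of all tested genes. Members with next to no counts without injury passed the count filter through the ligated group, so part of this pattern is built in. The 22.3% covers genes of all levels and does not allow for that. Of the 32 genes, 9 were called higher and 0 lower, and 3 of the 9 had no count in any uninjured library. The list's median was the same with genes at 0 counts without injury set to their lower bound, a change that can hardly move a median. Bub1b, a spindle checkpoint kinase, had a total of 1 count in the uninjured libraries and 9.04, 19.99 and 30.2 CPM after ligation (adjusted p = 0.00517). Nuf2, a kinetochore protein, and Aurkb, the Aurora B kinase, had no count without injury and 15.6, 42.3 and 37.6 CPM and 12.7, 39.9 and 31.3 CPM after ligation, at least 221-fold and 194-fold higher. In all 3 genes the first ligated library was the lowest of its group. Ccnb2, a mitotic cyclin, had 3.1, 1.67 and 0 CPM without injury and 83.5, 116 and 143 CPM after ligation (log2 change 6.09, SE 1.10, adjusted p = 0.0194). Cenpa, Ube2c, Ndc80 and Hmmr were not called, with means of 3.41 ± 4.29 CPM, 1.01 ± 1.75 CPM, 0.438 ± 0.648 CPM and 1.37 ± 2.38 CPM without injury and 119 ± 51.3 CPM, 60.03 ± 27.5 CPM, 16.7 ± 6.71 CPM and 62.3 ± 18.3 CPM after ligation (SD, n = 3 each). Nuf2 was not called without ligated replicate 3, with an adjusted p of up to 0.0527. Aurkb was not called without ligated replicate 2 or 3, with an adjusted p of up to 0.0595. Ccnb2 was not called without uninjured replicate 2 or any 1 ligated library, with an adjusted p of up to 0.0984. Of 32 DNA replication genes, 6 rose and 0 fell (median 1.58), so 18.75% were called beside 13.6% of all genes. Rrm2, the regulated subunit of ribonucleotide reductase, had 8.57, 4.91 and 1.53 CPM without injury and 94.2, 102 and 115 CPM after ligation (log2 change 4.30, SE 0.61, adjusted p = 0.00903). Rrm2 was not called without ligated replicate 3, with an adjusted p of up to 0.054. Gadd45g, a growth arrest and DNA damage gene, had 76.8, 58 and 69.4 CPM without injury and 376, 303 and 302 CPM after ligation (log2 change 2.20, SE 0.19, adjusted p = 0.00164). Sesn1, a p53 target that restrains mTOR, had 124, 77.2 and 58.9 CPM without injury and 13.3, 11.8 and 13.1 CPM after ligation (log2 change -2.83, SE 0.32, adjusted p = 0.00517).

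H19 (chromosome 7, chr7:142575529-142578143 in GENCODE M21, minus strand), an imprinted long noncoding RNA of fetal growth, rose from 6.85, 8.42 and 11.6 CPM to 731, 765 and 588 CPM (log2 change 6.21, SE 0.29, adjusted p = 5.08e-04). Its lowest ligated library lay far above its highest uninjured one. Igf2, its imprinted neighbour, had 0, 0.351 and 0 CPM without injury and 11.9, 11.4 and 10.7 CPM after ligation (log2 change 6.43, SE 1.56, adjusted p = 0.0394), so both rose. Grb10, Ndn, Cdkn1c and Meg3 were not called (log2 changes 0.79, -0.74, -1.07 and 0.53), and in all 6 of 18 imprinted genes rose and 1 fell, the fall being that of Dcn (median 0.44). Igf2 was not called without uninjured replicate 1 or any 1 ligated library, with an adjusted p of up to 0.141.

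The largest rises over all genes, beside those already described, were of genes that had no count without injury. Aoc1 (chromosome 6, chr6:48872896-48909188, plus strand), diamine oxidase, which breaks down histamine and polyamines, had 143, 132 and 187 CPM after ligation, at least 1068-fold higher. Lama1 (chromosome 17, chr17:67697259-67822647, plus strand), the laminin alpha 1 chain of early basement membranes, had 81.3, 129 and 132 CPM, and Lrrc15 (chromosome 16, chr16:30269302-30283256, minus strand), a membrane protein known from activated fibroblasts of scars and tumours, had 92.3, 72.7 and 98.2 CPM, at least 793-fold and 609-fold higher. For each, all 3 ligated libraries were far above the level that 3 counts would give. Moxd1, a monooxygenase-like protein, had 33.8, 42.1 and 54.5 CPM, and Cacna1b, the N-type calcium channel of neurons, had 24.1, 66.4 and 40.3 CPM, at least 302-fold and 303-fold higher. Serpinb2, an intracellular inhibitor of plasminogen activators, had 5.82, 40.5 and 35.7 CPM, with 1 library well below the other 2. The remaining genes of this set, Ckap2l, Aspm and Kif2c, belong to the mitotic spindle and were at least 320.1-fold, 182-fold and 181-fold higher. Adjusted p-values were 7.27e-04, 0.00125, 8.95e-04, 0.0022, 0.00517 and 0.0167 for the first 6 in this order. Serpinb2, Aspm and Kif2c were not called without ligated replicate 2 or 3, with an adjusted p of up to 0.0913.

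The largest falls were of genes with hardly a count after ligation. Ces1d (chromosome 8, chr8:93166068-93197838, minus strand), a carboxylesterase of lipid and drug metabolism, had 138, 173 and 141 CPM without injury and no count after ligation, at least 1147-fold lower (adjusted p = 6.78e-04). Myoc (chromosome 1, chr1:162639155-162649693, plus strand), myocilin, a secreted protein, had 43.9, 55 and 43.3 CPM without injury and a total of 1 count after it (adjusted p = 7.27e-04), and Dact2, an inhibitor of Wnt and TGF-beta signalling, had 27.9, 42.7 and 71.3 CPM and 1 count (adjusted p = 0.0014). The uninjured libraries of all 3 were within a few-fold of each other, and the ligated ones were at or next to 0. Akr1c14, a steroid-reducing enzyme, and Gbp8, a guanylate-binding protein, had 17.1, 28.2 and 8.34 CPM and 18.3, 11.2 and 33 CPM without injury and no count after it, at least 136-fold and 159-fold lower. Car8, Rtl3, Scg3 and Pkhd1l1 fell too, from means of 22.7 ± 13.2 CPM, 35.2 ± 6.03 CPM, 16.9 ± 1.67 CPM and 39.2 ± 33.2 CPM to means of 0.0658 ± 0.0808 CPM, 0.124 ± 0.215 CPM, 0.0693 ± 0.12 CPM and 0.132 ± 0.115 CPM (SD, n = 3 each). Chodl, chondrolectin, had 53, 56.1 and 4.22 CPM without injury and no count after ligation, with 1 uninjured library far below the other 2. Igkc, the immunoglobulin kappa constant region made by plasma cells, had 1921, 3423 and 3.36 CPM without injury and 0, 0.29 and 0.113 CPM after ligation (adjusted p = 0.0253). Uninjured replicate 3 lay far below the other two uninjured libraries and was still above every ligated one. Car8 was not called without ligated replicate 2, with an adjusted p of up to 0.0624. Rtl3 was not called without ligated replicate 3, with an adjusted p of up to 0.0554. Scg3 and Pkhd1l1 were not called without ligated replicate 2 or 3, with an adjusted p of up to 0.0805. Chodl was not called without uninjured replicate 1 or 2 or any 1 ligated library, with an adjusted p of up to 0.0912. Igkc was not called without uninjured replicate 2 or any 1 ligated library, with an adjusted p of up to 0.11.

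Mesothelial genes also went down. Of 14 mesothelial markers 9 fell and 0 rose (median -4.20). Msln, mesothelin, had 141, 64.6 and 159.9 CPM without injury and 6.34, 12.4 and 1.55 CPM after ligation (log2 change -4.24, SE 0.79, adjusted p = 0.0219), Upk3b, a uroplakin of the mesothelial surface, had 198, 50.6 and 179 CPM without injury and 0.78, 4.23 and 1.02 CPM after ligation (log2 change -6.20, SE 0.91, adjusted p = 0.0111), and Gpm6a had 185, 40.4 and 158 CPM without injury and 0, 0.663 and 0.98 CPM after ligation (log2 change -7.86, SE 1.09, adjusted p = 0.00903). The second uninjured library was the lowest of its group in all 3 genes, yet above every ligated one. Rspo1, a Wnt agonist that is also one of these markers, had 62.8, 58.2 and 93.5 CPM without injury and 7.95, 3.57 and 1.21 CPM after ligation (log2 change -4.15, SE 0.69, adjusted p = 0.0166). No marker of this list was at 0 in all libraries of a group, and the part of mesothelial cells in the other falls was not tested. Msln was not called without ligated replicate 1 or 2, with an adjusted p of up to 0.0812. Upk3b was not called without ligated replicate 3, with an adjusted p of up to 0.0702. Gpm6a was not called without ligated replicate 2 or 3, with an adjusted p of up to 0.07. Rspo1 was not called without ligated replicate 2, with an adjusted p of up to 0.1.

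The ligation change was set beside that of a mutation that switches hedgehog signalling on. SmoM2 is an always-active form of Smoothened, the membrane protein that drives Gli factors, and was expressed in the Pdgfra lineage of the same duct (3 libraries from animals with Pdgfra:CreERT2, the reporter Rosa26:lox-STOP-lox-tdTomato and SmoM2, against 5 with the same Cre and reporter that were labelled wild type, of which replicate 5 is described as also carrying SmoFF). The 2 contrasts share no library, but they differ in the Cre line as well as in the condition, and these cannot be told apart. All libraries were fitted together, which gave 25357 tested genes, 2508 (9.89%) called after ligation, 49 (0.193%) called in SmoM2 and 1235 (4.87%) for which the 2 changes differed. The genes named in this comparison were chosen after their values were seen. The SmoM2 count rested on its controls and on single libraries: it was 13 without SmoM2 replicate 1, 12 without SmoM2 replicate 2, 22 to 32 without 1 of wild type replicates 1 to 4, 10 with wild type replicates 1 to 3 only and 275 with wild type replicates 4 and 5 only.

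Of the 49 genes called in SmoM2, 25 were also called after ligation, which is 51.02% of the SmoM2 calls and 0.997% of the ligation calls. The direction was the same in 21 of the 25 (10 higher and 11 lower in both) and opposite in 4. Ptch1, the hedgehog receptor and standard target gene, changed by 3.28 (SE 0.34) on the log2 scale in SmoM2 and by -0.06 (SE 0.38) after ligation, and the difference was called (adjusted p = 1.89e-04). Gpc3, a glypican that binds hedgehog ligands, averaged 278 ± 39.7 CPM in wild type and 750.4 ± 72.3 CPM in SmoM2 cells and 705 ± 88.3 CPM in uninjured and 90.9 ± 17.2 CPM in ligated cells (SD, n = 5, 3, 3 and 3), a rise of 1.37 (SE 0.19) against a change of -3.11 (SE 0.23) (adjusted p of the difference = 3.38e-10). The gene thus rose in one setting and fell in the other. Lepr, the leptin receptor, averaged 25.5 ± 17.1 CPM in wild type and 133 ± 24 CPM in SmoM2 cells and 57.3 ± 7.29 CPM in uninjured and 14.9 ± 2.45 CPM in ligated cells and did likewise, with 2.32 (SE 0.46) and -2.10 (SE 0.54) (adjusted p of the difference = 3.05e-04). Fancc and Dock9 were the other genes of opposite direction, and the difference was called for all 4. These 4 differences and that of Ptch1 were called in each of 16 other fits, 14 that left out 1 library and 1 with each set of wild type libraries. The change in SmoM2 alone was called in all 16 for Gpc3 and Ptch1, but in 9 for Lepr, 8 for Fancc and 4 for Dock9 (adjusted p of up to 0.129, 0.174 and 0.275).

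Several genes changed in the same direction in the 2 settings. Inhba rose by 3.21 (SE 0.62) in SmoM2 and by 3.11 (SE 0.75) after ligation, and Apcdd1 by 2.19 (SE 0.41) and 2.83 (SE 0.50). Nox4, an oxidase known from myofibroblasts, changed by -2.34 (SE 0.39) and -2.74 (SE 0.42), and Ugdh by -1.58 (SE 0.32) and -1.77 (SE 0.35). The SmoM2 change was called in 14 of the 16 other fits for Apcdd1, 13 for Nox4, 9 for Inhba and 6 for Ugdh (adjusted p of up to 0.151, 0.0741, 0.213 and 0.357). The ligation change minus the SmoM2 change was -0.14 (SE 0.97) for Inhba, 0.60 (SE 0.65) for Apcdd1, -0.45 (SE 0.57) for Nox4 and -0.24 (SE 0.48) for Ugdh, none of them called (adjusted p = 1, 0.602, 0.882 and 1). Other genes that moved strongly after ligation did not move so in SmoM2: F2r changed by 3.80 (SE 0.47) after ligation and 0.71 (SE 0.37) in SmoM2 (adjusted p of the difference = 8.90e-04), H19 by 6.15 (SE 1.08) and -1.45 (SE 0.82) (5.44e-04), Igfbp2 by 9.13 (SE 1.53) and 0.77 (SE 0.97) (0.00332) and Ebf2 by -4.58 (SE 0.53) and -1.43 (SE 0.43) (0.00334). Those 4 differences also held in every one of the other fits. Runx1 changed by 2.84 (SE 0.47) and 0.85 (SE 0.38), and its difference (adjusted p = 0.0377) was called in only 3 of the 16. Lrrc15 had no count in uninjured or wild type cells and averaged 68.7 ± 10.5 CPM in ligated and 0.650 ± 0.989 CPM in SmoM2 cells. With no count in either reference group its difference could not be estimated (SE 24339), so that it was not called says nothing. The difference of Gli1 was called neither in the main fit nor in any of the 16. Gli1 changed by -0.61 (SE 0.70) after ligation and 1.53 (SE 0.61) in SmoM2, and the SmoM2 change was not called (adjusted p = 0.547). Cyp26a1 changed by 7.83 (SE 1.29) and 1.01 (SE 1.19) (adjusted p of the difference = 0.0143), but that difference was not called with wild type replicates 1 to 3 only (adjusted p = 0.859).

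**Figure D4:**
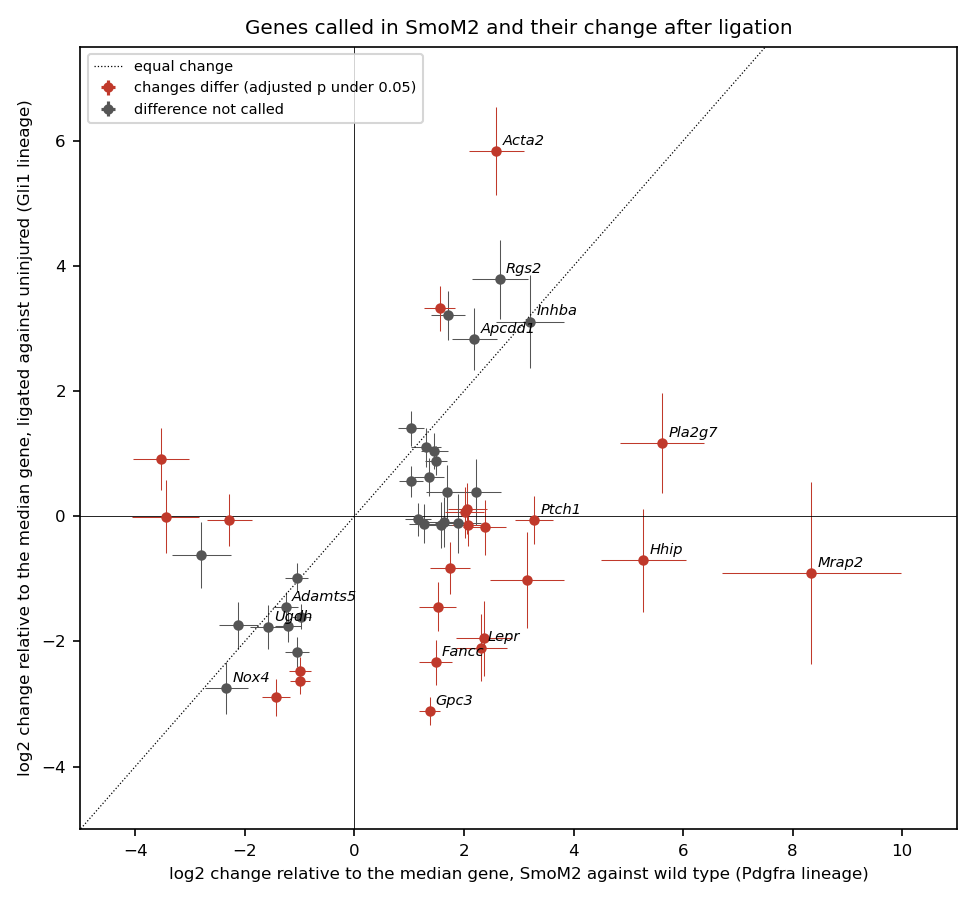
Each point is 1 of the 49 genes called in SmoM2, with its log2 change in SmoM2 against wild type in the Pdgfra lineage (horizontal axis) and after ligation in the Gli1 lineage (vertical axis), each relative to the median gene, and bars of 1 standard error. Red points are the 23 genes whose 2 changes differed at an adjusted p under 0.05, with Ptch1 and Hhip near 0 on the vertical axis and Gpc3, Lepr and Fancc below it, and the dotted line marks equal change.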

How the data were processed

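Smart-seq3 cDNA libraries of about 1000 sorted cells per animal were sequenced, and the authors deposited raw counts per gene, per the file headers, with mm10 as the build per the submitters' processing notes. The aligner, counting tool, annotation and strand setting were not given in the sources used here, so reads of overlapping or near-copy genes cannot be told apart. Counts of the 3 uninjured and 3 ligated libraries were tested with edgeR 4.0.16 (R 4.3.3; filterByExpr, TMM scaling, quasi-likelihood F-test, Benjamini-Hochberg over 17150 genes, called under 0.05), after a check on simulated counts. Libraries came from separate animals, so p-values measure the spread between animals. Positions came from GENCODE M21, matched by symbol for 53292 of 55401 genes, and promoters from RefSeq. The comparison and the 53 gene lists (49 used here, with 4 lists of contractile, matrix, complement and interferon genes left out of the naming) were chosen with earlier results of these data known. Named genes were up to 6 called and 4 uncalled members per list role in order of p, and the 12 largest rises and 12 largest falls among genes averaging log2 CPM 3 or more whose groups did not overlap; exceptions are marked, and some genes that this rule names are not reported here. The difference from SmoM2 was fitted over all 29 libraries. Alternatives were DESeq2 1.42.0, limma 3.58.1 (voom), other scalings and filters, a replicate block, a 1.5-fold minimum and leaving out each library.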

Additional observations from a re-analysis of the deposited data

How the results depend on the processing

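No gene called in the ligation comparison changed direction under any setting tried. The count of called genes was 4332 with DESeq2, 1493 without a filter on low counts, 1508 against a 1.5-fold minimum and 377 to 2383 when 1 library was left out, lowest without ligated replicate 3. It was 2314 to 2869 with other scalings, limma voom, the 10-count filter or without the ribosomal RNA locus. Filters chosen after seeing the data gave 1987 (mean log2 CPM of 3 or more) and 1561 (no gene at 0 throughout 1 group). Of the calls, 57.3% were higher as reported, 43.7% and 45.7% under those filters, 48.5% with limma voom and 50.1% without a filter. The median change over all genes was 0.07 as reported, 0.37 with DESeq2 and 0.26 with limma voom.

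The replicate numbers did not pair the samples: deviations of same-numbered libraries from their group means correlated at -0.03, -0.03 and -0.04. With the replicate number as a block, 428 genes were called, 38.1% of them higher. Over the 175 named genes that were called, the settings tried gave 369 values that missed the threshold, 86 of them without ligated replicate 3, 80 without ligated replicate 2 and 80 with the block. Among named genes that were not called, Ptch1 changed sign. Without the median of all genes subtracted, its log2 changes were -0.12 with limma voom and -0.27 to 0.30 when 1 library was left out. These values are therefore not on the scale of the changes given above. The 1235 genes whose changes differed between ligation and SmoM2 numbered 821 to 1136 when 1 library was left out, lowest without ligated replicate 3. The bound of 3 counts per library, 0.144 CPM without injury and 0.131 CPM after ligation, covers counting error only.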

Other observations

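Further gene groups were measured in the same comparison, in which 13.6% of all tested genes were called. The share called was 33.3% for tubulin, septin and filament genes, 29.6% for cell cycle control, 28.6% for skeletal lineage genes, 23.5% for prostanoid genes and 13.3% for ion channel and transport genes. It was 21.4% for the nucleotide and pentose phosphate list and 16.7% for genes of amino acid metabolism. Of 14 skeletal lineage genes 4 rose and 0 fell (median log2 change 0.65), with Alpl, the tissue-nonspecific alkaline phosphatase, at 3.79, 6.36 and 18.3 CPM without injury and 109, 50.1 and 58.2 CPM after ligation (log2 change 2.86, SE 0.66, adjusted p = 0.0321), beside Runx1. Alpl was not called without uninjured replicate 1 or 2 or any 1 ligated library, with an adjusted p of up to 0.108. Of 39 tubulin, septin and filament genes 12 rose and 1 fell (median 0.71), led after Ckap4 by Septin9, a filament protein, with 19.8, 18.2 and 11.1 CPM without injury and 60.5, 95 and 102 CPM after ligation (log2 change 2.33, SE 0.32, adjusted p = 0.00834). Septin9 was not called without ligated replicate 2 or 3, with an adjusted p of up to 0.054. Among 30 ion channel and transport genes 4 rose and 0 fell (median 0.53). Of 42 genes of amino acid metabolism 5 rose and 2 fell (median 0.35), among them Odc1, ornithine decarboxylase, with 26.9, 29.1 and 27.2 CPM without injury and 65.5, 65.6 and 68.6 CPM after ligation (log2 change 1.19, SE 0.17, adjusted p = 0.00817). Odc1 was not called without ligated replicate 2 or 3, with an adjusted p of up to 0.0598. The nucleotide and pentose phosphate list had 4 rises and 2 falls in 28 genes, the prostanoid list 2 and 2 in 17, and the cell cycle control list 6 and 2 in 27.

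Of the stress genes, 16.7% of hypoxia targets, 21.7% of cytosolic heat shock and chaperonin genes and 16.7% of p53 and senescence genes were called, beside 13.6% of all genes. Of 18 hypoxia targets 0 rose and 3 fell by edgeR (median -0.08), with Ndrg1, a stress-responsive gene, at 154, 109 and 165 CPM without injury and 38.9, 45.2 and 33.3 CPM after ligation (log2 change -1.93, SE 0.23, adjusted p = 0.00617). Bnip3, a mitophagy receptor, had 46.5, 39.3 and 49.6 CPM without injury and 20.3, 16.5 and 9.5 CPM after ligation (log2 change -1.62, SE 0.33, adjusted p = 0.0287). Bnip3 was not called without any 1 of the 6 libraries, with an adjusted p of up to 0.109. Cytosolic heat shock and chaperonin genes had 4 rises and 1 fall in 23, and p53 and senescence genes 2 rises and 2 falls in 24. Of 16 clock genes 2 fell, Cry2 with 28.2, 37.7 and 22.8 CPM without injury and 7.12, 5.18 and 4.68 CPM after ligation (log2 change -2.45, SE 0.36, adjusted p = 0.0122) and Arntl with 76.6, 42 and 58.9 CPM without injury and 15.7, 21 and 26.4 CPM after ligation (log2 change -1.56, SE 0.31, adjusted p = 0.0277), and the hour of collection was not given in the sources used here. Cry2 was not called without ligated replicate 2 or 3, with an adjusted p of up to 0.0797. Arntl was not called without uninjured replicate 1 or any 1 ligated library, with an adjusted p of up to 0.113. The share of clock genes called was 12.5%, beside 13.6% of all genes. The 10 glial and neural markers summed to 64.4 to 129 CPM without injury and 226 to 305 CPM after ligation; Ncam1, an adhesion molecule of nerve and mesenchyme, made up most of that sum with 111, 69.7 and 39.6 CPM without injury and 224, 246 and 302 CPM after ligation (log2 change 1.74, SE 0.38, adjusted p = 0.027), while S100b, a Schwann cell marker, fell from 17.7, 14.2 and 16.8 CPM to 1.04, 1.33 and 2.49 CPM (log2 change -3.39, SE 0.54, adjusted p = 0.015). Ncam1 was not called without uninjured replicate 2 or any 1 ligated library, with an adjusted p of up to 0.109. S100b was not called without any 1 ligated library, with an adjusted p of up to 0.0936. Sums of acinar markers (13.2 to 54.3 CPM against 5.68 to 11.2 CPM) and hepatocyte markers (328 to 444 CPM against 52.1 to 85.3 CPM) were lower after ligation. The 1 called of 3 hepatocyte markers tested, Ahsg, rose from 17.4, 17.9 and 6.31 CPM to 49.6, 50.5 and 83.9 CPM (log2 change 2.07, SE 0.46, adjusted p = 0.0293), while Cyp2e1, most of the uninjured sum, had 361, 424 and 311 CPM without injury and 12.2, 0 and 0 CPM after ligation and was not called (adjusted p = 0.0731). Ahsg was not called without uninjured replicate 1 or 2 or any 1 ligated library, with an adjusted p of up to 0.11. Levels of erythroid markers stayed at or below 2.37 CPM in each library.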
